A study of Saccharomyces cerevisiae with 12 samples.

Results

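The cyclins described here are 10 budding yeast genes: CLN3, CLN1, CLN2 and PCL1, which act in the G1 phase of the cell cycle, and the 6 B-type cyclins CLB1 to CLB6. They were taken by name and locus from the gene spots of 12 arrays and make up 10 of 6252 gene probes, or 20 of 12504 gene spots, since each probe was spotted in 2 places. The study measured messenger RNA in Saccharomyces cerevisiae at the diauxic shift, when yeast have used up the glucose of the medium and go over from fermentation to respiration. It compared wild type with a hsp31, a hsp32 and a hsp33 deletion strain, each with 3 arrays. Per the labels all cultures were in synthetic complete medium, and the labels give neither the strain background nor the mating type. HSP31, HSP32 and HSP33 encode members of the DJ-1 superfamily. Nothing in the labels ties the 3 arrays of a group to separate cultures, so a p-value measures array-to-array spread, part or all of which may be technical.

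Cyclins are the regulatory subunits of cyclin-dependent kinases, and their transcripts rise and fall as the cell cycle proceeds. In budding yeast Cln3 acts first in G1 and sets off transcription by the factors SBF and MBF, whose targets include CLN1, CLN2, PCL1, CLB5 and CLB6. Clb5 and Clb6 drive DNA replication, Clb3 and Clb4 act in spindle formation, and Clb1 and Clb2 drive mitosis. Cells that run out of glucose slow their growth and tend to stop in G1. The amounts below come from whole cultures, in which a change in the share of cells in a cell cycle phase and a change in transcript per cell cannot be told apart.

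Some facts of the arrays bear on the results. The median foreground of an array was 401 to 812 and its median local background 64 to 88, and the share of gene probes called above background was 80.3% to 97.1%. The threshold set by the negative controls was 284 on hsp32 deletion replicate 2 and 35.4 to 53.6 on the other 11 arrays. HSP31 read 12.65 ± 0.14 in wild type (normalized log2 signal, SD, n = 3) and was above background on 0 of 3 arrays of its own deletion. HSP32 and HSP33 were above background on all arrays labelled as their deletions. Those paralogs are near-identical in sequence, so their probes check neither label, and hsp32 and hsp33 deletion mean here the arrays so labelled. The 6 markers of MATa cells were all lower in the hsp33 deletion than in wild type and all higher in the other deletions, with summed signals of 2790 to 2860 in the hsp33 deletion, 7250 to 7920 in wild type, 16400 to 17600 in the hsp31 deletion and 16800 to 19400 in the hsp32 deletion. The 3 MATalpha markers were all higher in the hsp33 deletion. The alpha-factor gene MF(ALPHA)1 read 12.26 to 12.44 there and 7.17 to 7.36 in wild type, above background on 0 of 3 wild-type arrays. The part of this mating type difference in the results for the hsp33 deletion was not tested.

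Against wild type, 6 of the 9 cyclins that could be tested rose in the hsp31 deletion, 5 in the hsp32 deletion and 6 in the hsp33 deletion. CLB6 stayed too close to background to be tested. Of all 5863 genes tested, 25.7% rose in the hsp31 deletion, 33.3% in the hsp32 deletion and 29.0% in the hsp33 deletion. No cyclin fell in limma at an adjusted p under 0.05, where 30.4%, 36.7% and 32.4% of all genes did, and the cyclins at an unadjusted p under 0.05 numbered 6, 5 and 6, the same counts as the rises. All 3 deletion arrays lay above all 3 wild-type arrays for 6, 5 and 6 of the 9 cyclins, beside 29.2%, 36.2% and 33.8% of all genes. CLN1, PCL1, CLB1, CLB2 and CLB4 rose in all 3 deletions, 5 of 9 cyclins beside 22.5% of all genes. CLN1, PCL1 and CLB1 each rose by more than 1 on the log2 scale in all 3, 3 of 9 cyclins beside 4.13% of all genes. The cyclins' median log2 changes in those deletions, in the same order, were 0.45, 0.64 and 0.74, beside -0.03, -0.04 and -0.03 for all genes. The 3 comparisons share the wild-type arrays and are not separate evidence.

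**Figure D1:**
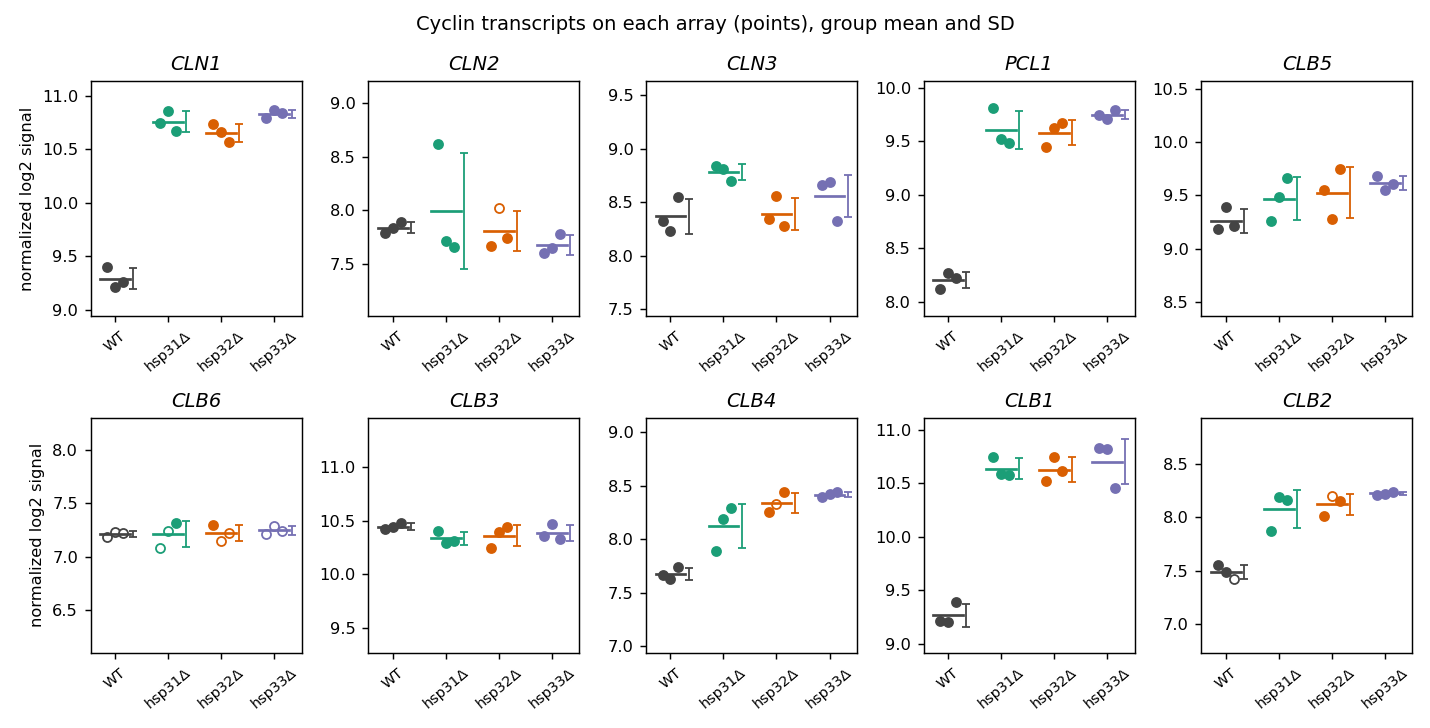
Normalized log2 signal of the 10 cyclin genes (vertical axes, all spanning the same 2.2 log2 units) on each wild-type and deletion array (horizontal axes). Points are arrays, open where the probe was not above background, horizontal lines are group means and the whiskers are SDs of 3 arrays. CLN1, PCL1 and CLB1 stand clear of wild type in every deletion array, while CLN2 and CLB3 stay near their wild-type level apart from hsp31 deletion replicate 1 for CLN2.

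CLN3 (YAL040C), the most upstream G1 cyclin, rose past the threshold in the hsp31 deletion. On the normalized log2 scale it read 8.33, 8.23 and 8.55 in wild type, 8.84, 8.81 and 8.70 in the hsp31 deletion, 8.34, 8.56 and 8.28 in the hsp32 deletion, and 8.66, 8.69 and 8.33 in the hsp33 deletion. All 3 hsp31 deletion arrays lay above all wild-type arrays, and the other 2 deletions overlapped wild type. The log2 change in the hsp31 deletion was 0.41 ± 0.12 (standard error of the limma fit, 3 arrays a group; adjusted p = 0.00839 by limma with Benjamini-Hochberg adjustment over all tested genes). The hsp32 deletion gave 0.03 (95% interval -0.23 to 0.28) and the hsp33 deletion 0.19 (-0.06 to 0.44). Of 27 other settings, CLN3 passed the threshold in 1 for the hsp32 deletion and in 4 for the hsp33 deletion. Over those settings the changes ranged from -0.10 to 0.45 and from -0.11 to 0.56. From the first of the 2 spots alone the rise in the hsp31 deletion was 0.20, with a limma adjusted p of 0.18, and with scaling to the 75th percentile it was 0.77. Within the 2 slides, inferred from spot positions, the rise was 0.39 on slide 1 and 0.47 on slide 2, and the call was kept on neither. On slide 2 wild type had replicate 2 alone and the hsp31 deletion replicate 3 alone. Slide 1 held only replicate 1 of the hsp32 deletion and replicate 3 of the hsp33 deletion. Values within slides, here and below, thus rest in part on single arrays. The groups ran from high to low as hsp31, hsp33 and hsp32 deletion and wild type, and no neighbours in that order differed past the threshold.

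CLN1 (YMR199W) and CLN2 (YPL256C) encode the duplicate G1 cyclins that carry cells through the commitment point in G1, and their transcripts behaved differently. CLN1 read 9.40, 9.21 and 9.26 in wild type, 10.75, 10.86 and 10.67 in the hsp31 deletion, 10.74, 10.66 and 10.57 in the hsp32 deletion, and 10.79, 10.87 and 10.84 in the hsp33 deletion. Every deletion array lay more than 1 log2 unit above the wild-type arrays. The fitted rises were 2.77-fold, 2.57-fold and 2.91-fold, or 1.47, 1.36 and 1.54 on the log2 scale, each ± 0.085, with adjusted p = 1.69e-08, 6.70e-09 and 5.57e-09 by limma. On slides 1 and 2 the log2 changes were 1.47 and 1.46 for the hsp31 deletion, 1.41 and 1.40 for the hsp32 deletion, and 1.51 and 1.61 for the hsp33 deletion. The 3 deletions did not differ past the threshold in CLN1.

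CLN2 read 7.79, 7.84 and 7.89 in wild type, 8.62, 7.71 and 7.66 in the hsp31 deletion, 7.67, 8.02 and 7.74 in the hsp32 deletion, and 7.60, 7.65 and 7.78 in the hsp33 deletion. The groups overlapped except that the hsp33 deletion arrays lay just below wild type, a position that 38.2% of all tested genes shared. The log2 changes of 0.15, -0.03 and -0.16 had standard errors of 0.19 and 95% intervals of -0.27 to 0.57, -0.45 to 0.39 and -0.58 to 0.26, so rises of the size of CLN1's lay outside each interval. The high value of hsp31 deletion replicate 1 came from spots reading 9.20 and 8.03, the widest gap between the 2 spots of any cyclin on any array. Without that array the change in the hsp31 deletion was -0.16. CLN2 was not above background on hsp32 deletion replicate 2, the array with the raised threshold.

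PCL1 (YNL289W) encodes a G1 cyclin of a different kinase, Pho85. Its log2 signal was 8.12, 8.27 and 8.22 in wild type, 9.81, 9.52 and 9.49 in the hsp31 deletion, 9.45, 9.63 and 9.67 in the hsp32 deletion, and 9.75, 9.71 and 9.79 in the hsp33 deletion. The deletion arrays were all above the wild-type arrays, and the 3 deletions did not differ past the threshold in PCL1. The rises were 2.64-fold, 2.60-fold and 2.92-fold, or 1.40, 1.38 and 1.55 on the log2 scale, each ± 0.098, with adjusted p = 8.35e-08, 2.42e-08 and 1.72e-08 by limma. Within slides 1 and 2 the log2 changes were 1.49 and 1.22, 1.27 and 1.38, and 1.62 and 1.46. Among the other 11 genes of the Pho85 family, namely PHO85 itself and its remaining cyclins, 2, 4 and 2 rose and 4, 4 and 3 fell in the hsp31, hsp32 and hsp33 deletions, which is near the shares of all genes that rose (25.7%, 33.3% and 29.0%) and fell (30.4%, 36.7% and 32.4%). PCL5 of that family rose by 0.56, 0.88 and 0.74, and PCL8 and PCL7, cyclins that direct Pho85 to glycogen metabolism, changed by -0.65, -1.08 and -0.94 and by -0.55, -0.93 and -0.73. PHO80, the cyclin of the phosphate response, changed by -0.59, -0.63 and -0.55.

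**Figure D2:**
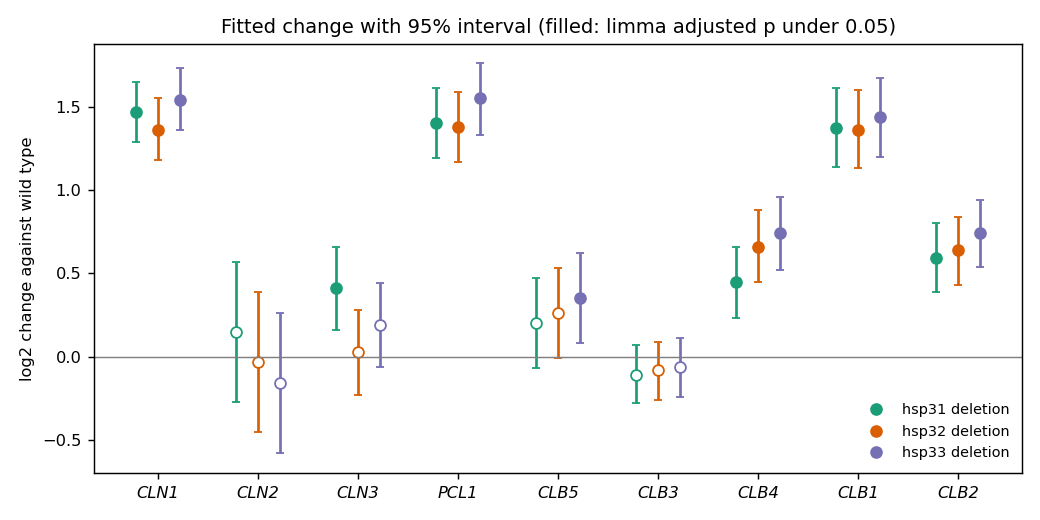
Fitted log2 change against wild type (vertical axis) of the 9 tested cyclins (horizontal axis) in the hsp31, hsp32 and hsp33 deletions. Points are limma estimates from 3 arrays a group, filled at an adjusted p under 0.05, and bars are 95% intervals. CLN1, PCL1 and CLB1 lie between 1.36 and 1.55, CLB2 and CLB4 between 0.45 and 0.74, and the intervals of CLN2 and CLB3 include 0 in all 3 deletions.

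CLB5 (YPR120C), the main cyclin of DNA replication, rose past the threshold in the hsp33 deletion. It read 9.19, 9.39 and 9.21 in wild type, 9.26, 9.49 and 9.66 in the hsp31 deletion, 9.55, 9.28 and 9.75 in the hsp32 deletion, and 9.68, 9.55 and 9.61 in the hsp33 deletion. The hsp33 deletion arrays lay above all wild-type arrays, and the other 2 deletions overlapped wild type. The log2 change was 0.35 ± 0.13 in the hsp33 deletion (limma adjusted p = 0.0260), and 0.20 and 0.26 in the hsp31 and hsp32 deletions (limma adjusted p = 0.184 and 0.0771). The call in the hsp33 deletion was lost within each slide, where the change was 0.42 on slide 1 and 0.22 on slide 2. It was also lost without wild type replicate 1 or 3 or without hsp33 deletion replicate 1 or 3, with changes of 0.31 to 0.42 over all left-out arrays. Under some other settings CLB5 also rose past the threshold in the hsp31 and hsp32 deletions, by 0.49 and 0.62 with scaling to the 75th percentile and by 0.34 and 0.34 with the authors' series values (limma adjusted p = 0.0133 and 0.0097). The same held without hsp31 deletion replicate 1 (0.31 and 0.26, limma adjusted p = 0.0475 and 0.0459), and, for the hsp32 deletion, with median scaling (0.34) or without its replicate 2 (0.38). The rise in the hsp33 deletion was 0.65 with scaling to the 75th percentile. The difference between the 3 deletions in CLB5 did not pass the threshold.

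CLB6 (YGR109C), the paralog of CLB5, read 7.18, 7.23 and 7.22 in wild type, 7.08, 7.24 and 7.32 in the hsp31 deletion, 7.30, 7.15 and 7.22 in the hsp32 deletion, and 7.21, 7.29 and 7.24 in the hsp33 deletion. It was above background on 0, 1, 1 and 0 of the 3 arrays in these groups. It was therefore not tested, a fall or a small rise could go unseen at this brightness, and the values carry no order.

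CLB3 (YDL155W) and CLB4 (YLR210W) encode the duplicate B-type cyclins of spindle formation. CLB3 read 10.42, 10.44 and 10.48 in wild type, 10.41, 10.29 and 10.31 in the hsp31 deletion, 10.25, 10.40 and 10.44 in the hsp32 deletion, and 10.36, 10.47 and 10.33 in the hsp33 deletion. The hsp31 deletion arrays lay below all wild-type arrays, as did those of 34.8% of all tested genes, and the other deletions overlapped wild type. The log2 changes were -0.11, -0.08 and -0.06, each ± 0.081, with 95% intervals of -0.28 to 0.07, -0.26 to 0.09 and -0.24 to 0.11. When each array was scaled to its median in place of quantile normalization, the changes were -0.21 in the hsp31 deletion and -0.20 in the hsp32 deletion, with adjusted p = 0.038 and 0.0432 by limma. From the first spot alone the hsp31 deletion gave -0.29 (limma adjusted p = 0.0288).

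CLB4 read 7.66, 7.63 and 7.74 in wild type, 7.89, 8.19 and 8.29 in the hsp31 deletion, 8.25, 8.33 and 8.44 in the hsp32 deletion, and 8.39, 8.42 and 8.44 in the hsp33 deletion. Each deletion array lay above the wild-type arrays. The log2 rises were 0.45, 0.66 and 0.74, each ± 0.10, with limma adjusted p = 0.00196, 4.40e-05 and 2.54e-05. The groups ordered from high to low as hsp33, hsp32 and hsp31 deletion and wild type. The neighbouring deletions did not differ past the threshold, and the gap from the hsp31 deletion to wild type did. In 3 of 26 other settings CLB4 was higher past the threshold in the hsp32 than in the hsp31 deletion. The change between them ranged from 0.09 to 0.35 over those settings. The 2 spots of CLB4 differed by up to 0.74 on an array, and from the second spot alone the rises were 0.22, 0.31 and 0.47, with the call in the hsp31 deletion lost (limma adjusted p = 0.146), and from the first spot alone those of the hsp32 and hsp33 deletions were 1.02 and 1.01. The rise in the hsp31 deletion was 0.70 with the authors' series values. On slide 1 the rise in the hsp31 deletion was 0.34 (limma adjusted p = 0.11). On slide 2 it was 0.66, from hsp31 deletion replicate 3 against wild type replicate 2.

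CLB1 (YGR108W) and CLB2 (YPR119W) encode the mitotic cyclins. CLB1 read 9.21, 9.20 and 9.39 in wild type, 10.75, 10.59 and 10.58 in the hsp31 deletion, 10.52, 10.75 and 10.62 in the hsp32 deletion, and 10.83, 10.82 and 10.46 in the hsp33 deletion. All deletion arrays stood above all wild-type arrays, and the 3 deletions overlapped each other. The rises were 2.59-fold, 2.57-fold and 2.71-fold, or 1.37, 1.36 and 1.44 on the log2 scale, each ± 0.11, with adjusted p = 2.72e-07, 8.82e-08 and 9.53e-08 by limma. Within slides 1 and 2 the log2 changes were 1.37 and 1.38, 1.22 and 1.49, and 1.16 and 1.63.

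CLB2 read 7.55, 7.49 and 7.42 in wild type, 7.87, 8.19 and 8.16 in the hsp31 deletion, 8.01, 8.20 and 8.15 in the hsp32 deletion, and 8.21, 8.22 and 8.24 in the hsp33 deletion. These groups did not overlap wild type either. The log2 rises were 0.59, 0.64 and 0.74, each ± 0.094, with adjusted p = 1.34e-04, 3.55e-05 and 1.34e-05 by limma. CLB2 was dim, and it was not above background on wild type replicate 3. It also missed the raised threshold of hsp32 deletion replicate 2, where its background-subtracted signal was 228. Normexp with the offset of 50 draws dim signals together, and with an offset of 16 the rises were 0.70, 0.75 and 0.87. Without background correction they were 1.02, 1.1 and 1.21, and with the authors' series values 1.04, 1.11 and 1.20, and the call held under both. Within slides 1 and 2 they were 0.55 and 0.68, 0.53 and 0.68, and 0.76 and 0.73. The call was not kept at 0.53, a value that rests on hsp32 deletion replicate 1 alone. In the reference table CLB1 neighbours CLB6 and CLB2 neighbours CLB5, so that each mitotic cyclin gene lies next to an S-phase cyclin gene. CLB2 changed by 0.59 to 0.74 and its neighbour CLB5 by 0.20 to 0.35, a difference that was not tested.

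Within the duplicate pairs the unequal change was tested on the difference between the 2 genes on each array, whose 3 shifts from the wild-type mean are given for the hsp31, hsp32 and hsp33 deletions in turn. CLN1 minus CLN2 moved up by 1.32, 1.40 and 1.70 on the log2 scale, with p = 0.0076 by an exact permutation test of the F statistic over the 4 groups, one-sided in F, and 0.0152 after adjustment over the 4 pairs. CLB1 minus CLB2 moved up by 0.78, 0.73 and 0.70 (exact permutation p = 0.0158, adjusted 0.021). CLB3 minus CLB4 moved by -0.55, -0.75 and -0.80 (exact permutation p = 0.00169, adjusted 0.00675). CLB5 minus CLB6 moved by 0.20, 0.25 and 0.31, which did not pass (exact permutation p = 0.0955, adjusted 0.0955), and CLB6 was near background. The test ran over all 15400 regroupings of the 12 arrays, and the smallest p they can give is 6e-05. The deletion arrays lay beyond all wild-type arrays in the 3 pairs that passed. Without background correction the shift of CLB1 minus CLB2 was 0.40, 0.34 and 0.29 and no longer passed (exact permutation adjusted p = 0.223). With the authors' series values that shift was 0.38, 0.37 and 0.34 and passed (exact permutation adjusted p = 0.0356). CLB2 was dim in wild type, with a mean background-subtracted signal of 59.5 and 2 of 3 arrays above background. The part of this dim signal in the shift was not tested. CLN2 and CLB4 were also dim in wild type, with mean background-subtracted signals of 95.5 and 77. Both were above background on 3 of 3 wild-type arrays, and the part of their dim signal in their pairs' shifts was not tested. From the second spot alone CLB3 minus CLB4 did not pass (exact permutation adjusted p = 0.235).

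**Figure D3:**
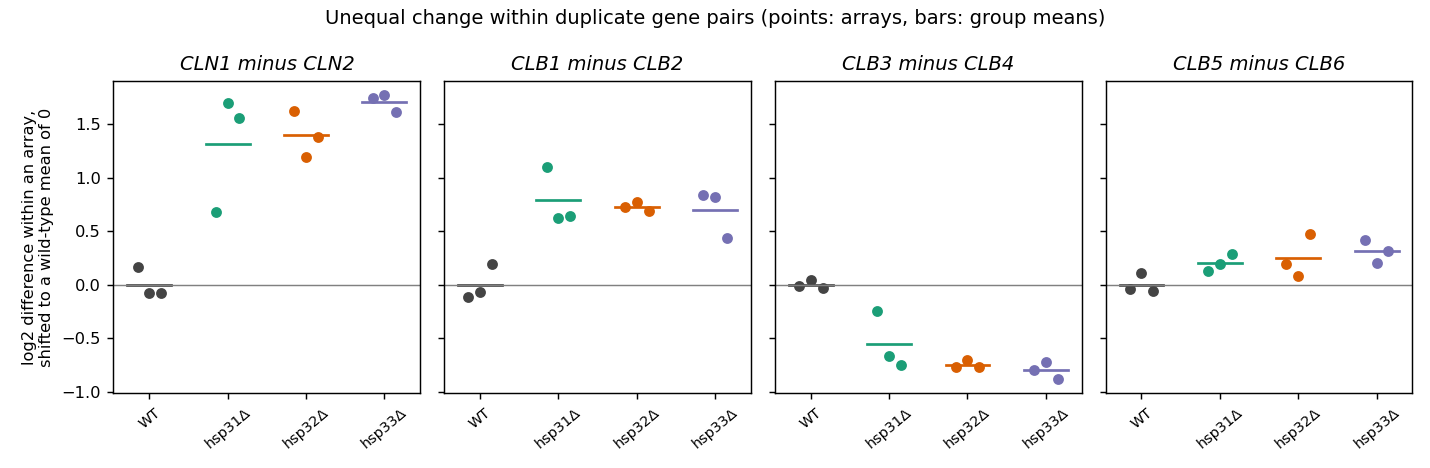
Difference in log2 signal between the 2 genes of a duplicate pair on each array (vertical axis, shifted so that the wild-type mean is 0) in wild type and the 3 deletions (horizontal axes). Points are arrays and bars are group means. CLN1 minus CLN2 moved up by 1.32 to 1.70 and CLB3 minus CLB4 moved by -0.55 to -0.80, while CLB5 minus CLB6 moved by 0.20 to 0.31.

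Between the deletions 1 cyclin differed. CLN3 was lower in the hsp32 than in the hsp31 deletion by a log2 change of -0.39 ± 0.12 (limma adjusted p = 0.0181), in a comparison in which 17.8% of all genes were lower. All hsp32 deletion arrays lay below all hsp31 deletion arrays, as they did for 22.8% of all genes. That call was lost within slides 1 and 2, where the change was -0.48 and -0.28, from the first spot alone (-0.27), and without hsp32 deletion replicate 1 (-0.36) or 3 (-0.33). In the hsp33 against the hsp31 deletion 0 of 9 cyclins differed in limma, with 4.83% of all genes called and 1 cyclin, CLB4, at an unadjusted p under 0.05. CLB4 was higher there by 0.29 ± 0.10, with a limma adjusted p of 0.107. In the hsp33 against the hsp32 deletion 0 of 9 differed, with 18.7% of all genes called and 0 cyclins at an unadjusted p under 0.05.

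Over the 12 arrays, with each gene's mean removed, the cyclins with the most alike profiles were CLB4 and CLB2, whose root mean square difference was 0.092 log2 units, and the least alike were CLN1 and CLN2 at 0.70. PCL1 and CLB1 differed by 0.13, CLN1 and PCL1 by 0.14 and CLN1 and CLB1 by 0.15. These 3 genes, a Cdc28 G1 cyclin, a Pho85 G1 cyclin and a mitotic cyclin, had profiles closer to one another than CLN1 had to its duplicate. Among 4603 other named genes above background on all 12 arrays, the nearest to CLN1 were STU2 (0.14), DBF2 (0.14) and SUT1 (0.15), where the median over all candidates was 0.66. Stu2 is a microtubule-binding protein, Dbf2 a kinase of mitotic exit and Sut1 a transcription factor of sterol uptake. The nearest to CLN3 were NUF2 (0.085), a kinetochore gene, OCH1 (0.12), a mannosyltransferase gene, and ENV7 (0.12), with a median of 0.33. The nearest to CLB2 were BIO4 (0.085), COQ2 (0.092) and PNP1 (0.10), with a median of 0.38. These distances depend on the size of the changes, and CLB2 was dim. Its changes in the hsp31, hsp32 and hsp33 deletions were 0.59, 0.64 and 0.74. Over other settings they ranged from 0.54 to 1.04, from 0.53 to 1.11 and from 0.71 to 1.21. The part of dim signal in the distances of CLB2, that to CLB4 included, was not tested. The nearest to CLB5 were PAM16 (0.091), SIR4 (0.094) and BOL3 (0.095), with a median of 0.31. The differences between groups are part of each profile, and the distances describe these 12 arrays.

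The kinase and its direct regulators moved in both directions. CDC28, the kinase that all CLN and CLB cyclins activate, rose by 0.97, 1.21 and 1.08 (each ± 0.11) in the hsp31, hsp32 and hsp33 deletions. FAR1, an inhibitor of Cln-bound Cdc28 in the response to pheromone, rose by 0.76, 0.95 and 1.53. Its highest value was in the deletion whose mating type markers stood apart, and a link between them was not tested. MIH1, the phosphatase that activates Cdc28 at mitosis, fell by 0.42, 0.86 and 0.56, and HSL1, a bud-neck kinase, rose by 0.95 in the hsp31 deletion (± 0.37, limma adjusted p = 0.0429). Of the 9 genes, 3, 2 and 2 rose and 3, 4 and 2 fell, near the shares of all genes that rose (25.7%, 33.3% and 29.0%) and fell (30.4%, 36.7% and 32.4%). The list's medians were -0.03, -0.20 and 0.09, each of which changed sign under another setting.

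Most targets of SBF and MBF rose. Of 18 such genes other than cyclins, 13, 12 and 15 rose, where 25.7%, 33.3% and 29.0% of all genes did, and 1 fell in each deletion, with median changes of 0.65, 0.73 and 0.77. POL30, the sliding clamp of DNA replication, rose by 1.49, 1.76 and 1.86, and CRH1, a cell wall enzyme, by 1.29, 2.01 and 1.51. EXG1 rose by 0.62, 1.60 and 1.03 and MNN1 by 0.68, 1.33 and 0.98, genes of a cell wall glucanase and of a mannosyltransferase. Of the 11 genes of SBF, MBF and their regulators, 6, 5 and 3 rose and 1, 2 and 1 fell, beside the same 25.7%, 33.3% and 29.0% of all genes that rose and 30.4%, 36.7% and 32.4% that fell, so that the 3 rises in the hsp33 deletion are near the share of all genes. NRM1, the repressor of MBF targets, rose by 1.03, 1.06 and 1.11 and YHP1, a repressor of early cell cycle genes, by 0.78, 0.92 and 0.88, while MSA2 fell by 0.84, 0.88 and 0.78. STB1, which binds SBF and MBF, rose by 0.50 and 0.48 in the hsp31 and hsp32 deletions and changed by 0.26 in the hsp33 deletion (limma adjusted p = 0.0815).

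Of 11 known regulators of CLN3, CLN1 and CLN2, 6, 5 and 5 fell and 2, 2 and 1 rose, beside 30.4%, 36.7% and 32.4% of all genes that fell and 25.7%, 33.3% and 29.0% that rose. XBP1, a repressor of CLN1 and other genes under starvation, fell by 0.61, 1.99 and 1.25. RME1, which activates CLN2, fell by 0.73, 1.08 and 1.01, and AZF1, a glucose-dependent activator of CLN3, fell by 0.78, 0.98 and 0.83. SSA1, a cytosolic Hsp70, fell by 1.24, 1.14 and 0.95. The list's medians were -0.43, -0.26 and -0.22, and with scaling to the 75th percentile those of the hsp32 and hsp33 deletions turned to 0.10 and 0.0074.

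Most genes of the CLB2 cluster, which are transcribed with CLB2 in G2 and M phase, rose as well. Of 15 members other than cyclins, 12, 10 and 10 rose and 1, 2 and 2 fell, where 25.7%, 33.3% and 29.0% of all genes rose and 30.4%, 36.7% and 32.4% fell, with medians of 0.69, 0.46 and 0.73. ALK1, a mitotic kinase gene, rose by 1.22, 1.40 and 1.52, DBF2 by 1.16, 1.21 and 1.37, HST3, a histone deacetylase gene, by 1.08, 0.68 and 0.74, and PHO3, an acid phosphatase gene, by 0.66, 1.15 and 0.92. Of 5 transcription factors that act between S phase and mitosis, 0, 1 and 2 rose in limma, with 1, 1 and 2 at an unadjusted p under 0.05. These counts are too small to set apart from the 25.7%, 33.3% and 29.0% of all genes that rose. MCM1 rose by 0.74 and 0.36 in the hsp32 and hsp33 deletions and HCM1 by 0.33 in the hsp33 deletion. Of 14 tested genes of the anaphase-promoting complex and mitotic exit, 8 rose in each deletion, above those shares of all genes, and 4, 5 and 4 fell, near them. CDC14, the phosphatase that reverses Cdc28 action, rose by 0.74, 1.19 and 0.87. CDH1, which directs destruction of mitotic cyclins, fell by 0.64, 1.06 and 0.83, and AMA1, a meiotic activator of the same complex, by 1.22, 1.40 and 1.33. Some genes stand in more than 1 of these lists, among them DBF2, SWI5, CDC20 and SWE1.

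Markers of growth on glucose and of the post-diauxic state also changed in the 3 deletions. All 8 glucose-induced genes rose in all 3 deletions, where 22.5% of all genes did, with medians of 1.8, 2.0 and 1.8. Their summed signal was 57600 to 60100 in wild type and 180000 to 190000 in the hsp31 deletion. It was 182000 to 196000 in the hsp32 deletion and 189000 to 196000 in the hsp33 deletion. MIG2, a glucose-induced repressor gene, rose by 2.77, 3.17 and 3.08, HXK2, the main hexokinase gene, by 2.88, 2.82 and 2.93, and HXT4, a glucose transporter gene, by 2.67, 2.82 and 2.62. HXT3 was saturated on the deletion arrays. Of 14 post-diauxic genes 13, 14 and 14 fell, where 30.4%, 36.7% and 32.4% of all genes did. Their medians were -0.94, -2.10 and -1.40. Among them were GRE1 (-3.99, -5.05 and -4.60), SPG1 (-2.11, -3.62 and -2.94) and SIP18 (-2.87, -3.51 and -3.12). HSP12 also fell and was saturated on the wild-type arrays. The part of this difference in growth state in the cyclin results was not tested.

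**Figure D4:**
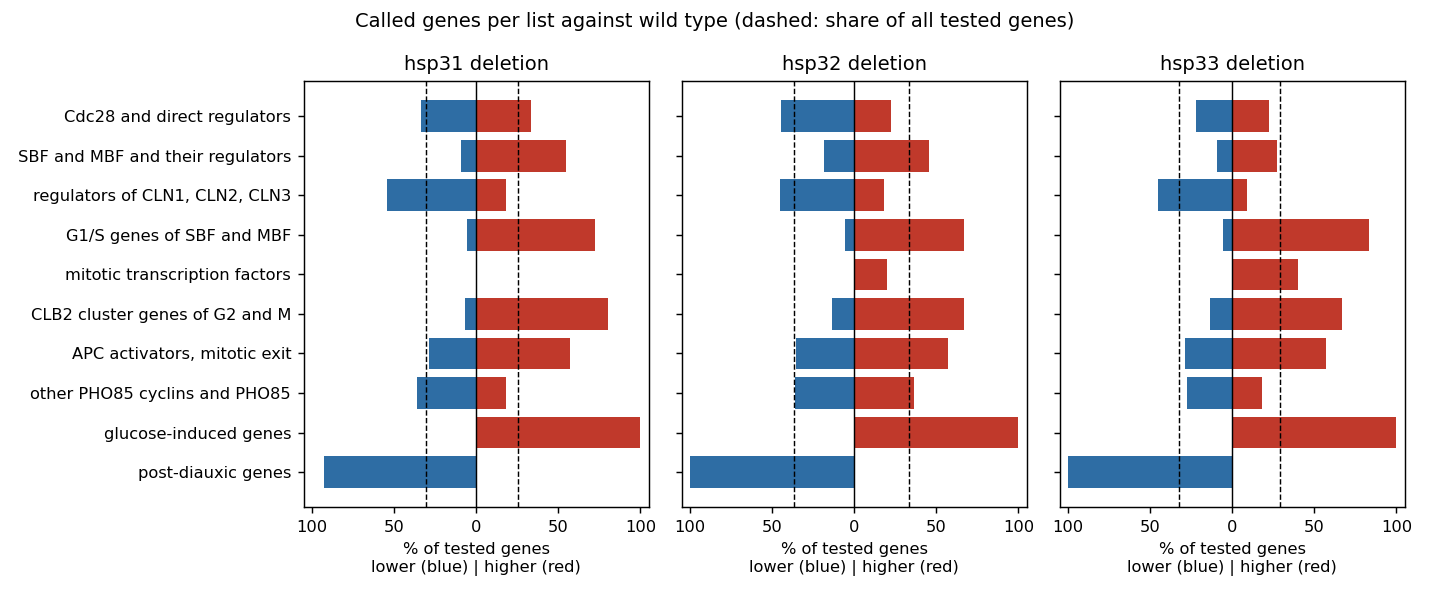
Share of tested genes of each list that rose (red, to the right) or fell (blue, to the left) at a limma adjusted p under 0.05 (horizontal axes, percent) in the hsp31, hsp32 and hsp33 deletions against wild type. Dashed lines mark the share of all 5863 tested genes. G1/S and CLB2 cluster genes rose above that share in all 3 deletions, all 8 glucose-induced genes rose, and 13 or 14 of 14 post-diauxic genes fell.

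In the authors' deposited tables of spots for each deletion against wild type, 12 of the 20 cyclin spots were listed for the hsp31 deletion, 11 for the hsp32 deletion and 14 for the hsp33 deletion. Of all 12504 gene spots the authors' deposited tables listed 52.7%, 60.0% and 56.9%, so the cyclins' counts of listed spots are near those of all genes for the hsp31 and hsp32 deletions. In the authors' deposited tables both spots of CLN1, PCL1, CLB1 and CLB2 were listed in all 3, and no spot of CLN2 or CLB6 in any. CLB3 was listed in the authors' deposited tables with ratios below 1, namely 0.7197 for the hsp31 deletion, 0.7369 for the hsp32 deletion and 0.8131 and 0.8359 for the hsp33 deletion. The unadjusted p for CLB3 in the authors' deposited tables were 0.0013, 0.0137, and 0.0034 to 0.0489, from a test that is not given in the sources used here. In the limma fit no change of CLB3 passed the threshold.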

How the data were processed

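Per the labels, total RNA of each of 12 samples went onto its own Agilent array with the dye Cy3. The deposited scanner files give foreground and local background intensity of each spot and the percent of saturated pixels, per the file headers. The authors' deposited series values are the median foreground intensity, equal in all 188832 values compared. The authors' deposited comparison tables give an unadjusted p-value per spot and a fold column that lost most decimal points, so that only ratios below 1 are printed. The files hold neither a processed signal nor detection flags. The fallback of the design was therefore used: normexp with offset 50 on mean foreground and median local background, log2, quantile normalization of the gene spots, and the mean of a probe's 2 spots. A probe was above background where its background-subtracted signal passed the median of 77 negative controls by 2 SD. The tests took the 5863 genes that were above background throughout 1 or more of the groups. One limma model (limma 3.58.1, R 4.3.3) held 4 group means with 8 residual degrees of freedom, adjusted with Benjamini-Hochberg within each comparison at 0.05. The fit was also run on simulated data with few changed genes and no normalization step. That run does not cover changes in as many genes as seen here.

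Names came from a RefSeq table of assembly R64, which matched 5753 of 6252 probes. The build behind the files is not given in the sources used here, so no positions or sequences are printed. The 10 cyclins and the gene lists were chosen with earlier results of these data known, and 1 of the lists is not reported here. Named genes are all cyclins, the 3 nearest profiles for CLN1, CLN3, CLB2 and CLB5, and up to 4 called genes of each list with the largest change in any deletion. Slides were inferred from block positions and scan offsets, with 6 arrays and all 4 groups on each. Where a slide holds 1 array of a group, that array is assumed to vary like the others. The replicate numbers were not taken as pairs: the deviations of same-numbered arrays from their group means had mean correlations of 0.035, -0.033 and -0.013. Alternatives were other scalings, background corrections and detection filters, single spots, the series values, slide and replicate blocks, and each array left out. The number of arrays limits the precision.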

Additional observations from a re-analysis of the deposited data

How the results depend on the processing

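Of 54 cyclin changes over the 6 comparisons, 42 kept their call under all 27 other settings in which they could be fitted. The rises of CLN1, PCL1 and CLB1 against wild type kept theirs in all 3 deletions, with ranges of 1.32 to 1.79, 1.22 to 1.87 and 1.16 to 1.70 on the log2 scale. Uncalled changes took both signs, as CLN2 did between -0.42 and 0.39 and CLB3 between -0.29 and 0.08. Scaling to the 75th percentile moved the median of all genes to 0.12, 0.17 and 0.15, and under it CLB5 rose in the hsp31 and hsp32 deletions (0.49 and 0.62) and CLN3 in the hsp32 and hsp33 deletions (0.45 and 0.56). When genes had to be above background on all 12 arrays, the cyclins called against wild type fell from 6, 5 and 6 to 4, 3 and 4, since the called CLB4 and CLB2 were then not tested, nor was the uncalled CLN2. In the hsp32 against the hsp31 deletion the count of 1 became 0 under 75th percentile scaling and within either slide, 2 with the authors' series values, and 0 to 2 with an array left out: 0 without hsp32 deletion replicate 1 or 3 and 2 without hsp31 deletion replicate 3.

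Of the pair tests, by exact permutation with adjustment over the 4 pairs, CLN1 and CLN2 gave p = 0.0556 with the replicate block and 0.00636 to 0.0427 with an array left out. CLB1 and CLB2 gave 0.223 without background correction and 0.0671 with the replicate block. CLB3 and CLB4 gave 0.235 from the second spot alone. CLB5 and CLB6 gave 0.0137 under 75th percentile and median scaling and 0.0225 to 0.245 with an array left out, below 0.05 without hsp32 deletion replicate 2 (0.0369) or 3 (0.0225). The cause of these changes was not tested. The replicate block changed no call among the 9 tested cyclins in limma. Genes called over the whole array fell within slides 1 and 2 from 3290 to 2129 and 1444 (hsp31 deletion), from 4105 to 2626 on slide 1 (hsp32 deletion) and from 3600 to 2226 and 2261 (hsp33 deletion). Between deletions the 2206 genes of hsp32 against hsp31 fell to 459 and 611 within slides. The 283 of hsp33 against hsp31 ranged down to 28, and the 1097 of hsp33 against hsp32 to 20. A detection threshold with a robust spread, chosen after seeing the data, changed no call among the 9 tested cyclins and put CLB6 above background on 3 in place of 1 of the hsp31 deletion arrays. Of 99 counts and medians of all gene lists against wild type, 25 stayed under every setting within 1.5 times (counts) or within the SD between arrays of a group (medians). The medians of G1/S genes ranged from 0.58 to 1.1 over the deletions and settings and those of the CLB2 cluster from 0.29 to 0.97. Brightness limits CLB6 and leaves CLB2 below the threshold on wild type replicate 3, and CLN2 and CLB4 were dim in wild type. CLB2, CLN2 and CLB4 missed the raised threshold of hsp32 deletion replicate 2, and passed there with the robust spread.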
